A study of Mus musculus with 10 samples.

Results

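Cells sorted as Sox1-GFP-positive from the hippocampus of young adult mice are compared here with GFP-negative cells of that tissue. It rested on 6 of the 10 samples of the series, 3 in each group. The samples were chosen by the sort fraction and the age in their titles, and no measured value was used to choose them. All mice were heterozygous for Sox1-GFP, in which green fluorescent protein (GFP) reports activity of the Sox1 gene. The labels call the GFP-positive cells neural stem and progenitor cells of the subgranular zone, although the whole hippocampus was dissociated. Papain was used for the dissociation, and flow cytometry separated a fraction high in GFP from one without it. The GFP-positive samples, replicates 1, 2 and 3, came by title from mice of 7, 5 and 4 months, and the GFP-negative samples from mice of 7, 7 and 4 months. The series description gives 5 to 7 months for the young mice and names 1 array of a young mouse that the submitters left out. The other 4 samples, GFP-positive cells of 21-month-old mice, entered the estimate of the spread and no comparison here. GFP-negative cells of old mice were not analysed here. The titles call the samples biological replicates, and p-values measure the spread between these samples. Whether GFP-positive and GFP-negative samples share mice is not in the labels, and the main fit took all samples as independent.

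Sox1 is a transcription factor of the SoxB1 family that keeps neural precursors undifferentiated, and in the adult hippocampus it marks radial stem cells of the dentate gyrus and a part of the astrocytes. Radial stem cells and astrocytes share most of their known markers, such as glutamate transporters, gap junction proteins and Gfap. Neurons, microglia, oligodendrocytes and the cells of blood vessels make up the rest of the tissue and can enter the GFP-negative fraction. A difference between sorted fractions compares mixtures of cells, and fewer cells of a type and less RNA per cell cannot be told apart.

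Values are log2 expression values, on which a difference of 1 is a 2-fold change, and differences are GFP-positive minus GFP-negative. The 6 arrays had medians from 6.55 to 6.61. Across genes, r was 0.973 to 0.986 between replicates and 0.906 to 0.940 between the fractions. The median SD of a gene over 3 samples was 0.156 in the GFP-positive and 0.159 in the GFP-negative group. Values are given in the order of replicates 1, 2 and 3 throughout.

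The 4 markers given for the fractions separated the groups in every young sample. They are not particular to stem cells, and Sox1 and Nes, given below, did not pass the limma test. Egfr, the epidermal growth factor receptor of activated stem cells and astrocytes, had values of 9.36, 9.34 and 9.09 in the GFP-positive and 6.17, 6.26 and 5.99995 in the GFP-negative samples. The water channel gene Aqp4, expressed on astrocyte endfeet, had 10.98, 11.004 and 10.76 in the GFP-positive and 7.58, 7.80 and 5.91 in the GFP-negative samples, and GFP-negative replicate 3 was the lowest of the 6. Csf1r, the survival receptor of microglia, had 5.76, 6.26 and 7.17 in the GFP-positive and 11.03, 10.90 and 10.53 in the GFP-negative samples. Mag, a myelin protein gene of mature oligodendrocytes, had 6.45, 7.14 and 7.74 in the GFP-positive and 10.83, 10.68 and 10.45 in the GFP-negative samples. The narrowest gap between the nearest samples of the groups among these 4 genes was 2.71. For Csf1r and Mag the GFP-positive samples were unequal, with replicate 3 highest.

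Several samples stood apart within their own group, and the results below are given with these samples and, where it matters, without them. Both replicate 1 samples, from mice of 7 months, were high in choroid plexus genes, and the labels do not say whether they share a mouse. Ttr, the thyroid hormone carrier that choroid plexus secretes in quantity, had 12.59, 9.53 and 6.03 in the GFP-positive and 12.69, 9.26 and 5.88 in the GFP-negative samples. The same pair of samples was the highest of each group for the choroid plexus genes Clic6 (7.92, 4.57 and 4.65 against 7.92, 4.28 and 4.40) and Otx2 (8.19, 5.59 and 5.49 against 7.45, 5.56 and 5.32). Of the 18 choroid plexus genes measured, 0 were higher (1 without GFP-negative replicate 1) and 1 was lower, with a median difference of 0.11 and mean levels of 7.62, 6.02 and 5.77 in the GFP-positive and 7.74, 5.96 and 5.78 in the GFP-negative samples. Over all genes 7.68% were higher and 9.30% lower by the test given below.

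The remaining samples differed in other genes. GFP-positive replicate 2 was the highest of its group in early response genes, such as the nuclear receptor gene Nr4a1 (7.51, 9.52 and 7.996). GFP-positive replicate 3, from a 4-month-old mouse, had 132 genes at least 1 log2 unit above both other GFP-positive samples, the most of any young sample. Among them were the neuroblast genes Neurod1 (4.57, 4.85 and 7.59), Dcx (6.50, 6.31 and 8.87) and Igfbpl1 (5.62, 5.82 and 7.70) and the microglia genes Il1a (4.24, 4.95 and 8.66) and Ctss (6.50, 7.07 and 9.11). GFP-negative replicate 3 had 152 genes at least 1 unit below both other GFP-negative samples, among them the neuronal genes Kif5a (9.39, 9.55 and 6.63) and Neurod6 (7.09, 6.40 and 4.21) and the fibroblast gene Dcn (8.48, 7.90 and 5.57). GFP-negative replicate 2 had 11 genes that far above and 12 that far below the others. These genes were picked after their values were seen.

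**Figure D1:**
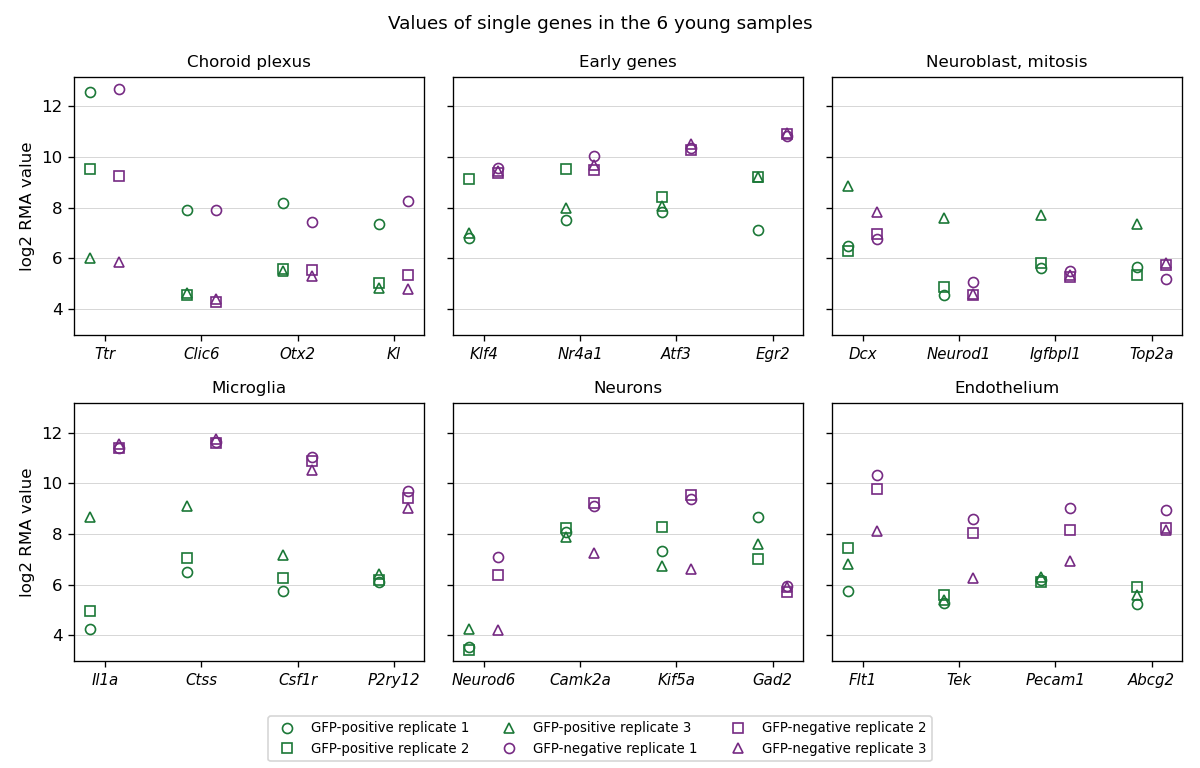
Log2 expression values of 24 genes in the 6 young samples, with the genes grouped by cell type or process along the horizontal axis. Each symbol is 1 sample, with green for GFP-positive and purple for GFP-negative cells and the shape for the replicate. In both groups replicate 1 is highest for the choroid plexus genes, and GFP-negative replicate 3 (purple triangles) lies near the GFP-positive samples for Kif5a and Neurod6.

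By limma with Benjamini-Hochberg adjustment, 3390 of 19965 genes (17.0%) passed an adjusted p under 0.05, which is called past the test below. Of all genes 7.68% were higher and 9.30% were lower in GFP-positive cells. Among these genes the median difference of the higher ones was 0.84 and that of the lower ones -1.02, and at least 3 log2 units were reached by 37 higher and 83 lower genes. The median difference over all genes was 0.098. For 38.9% of genes the groups did not overlap, 23.9% with higher and 15.0% with lower GFP-positive values. Of the 3390 genes past the test, 3342 had groups that did not overlap. Without both replicate 1 samples 777 genes were higher and 1064 lower. With array weights, which give noisier arrays less say, 3035 were higher and 2701 lower. Apart from Sox2, Ccna2 and Mcm3, the alternatives listed below for single genes leave out a fit with the replicate number as a block. Named genes that lost their call under this block are given at the end.

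**Figure D2:**
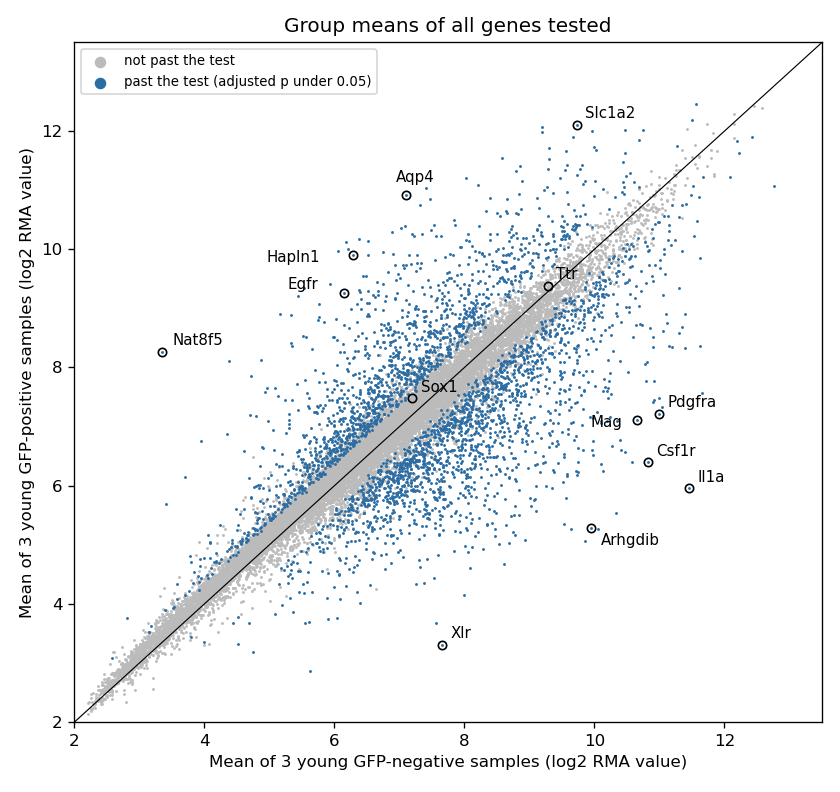
Mean log2 expression value of each of 19965 genes in the 3 young GFP-negative samples (horizontal axis) and the 3 young GFP-positive samples (vertical axis). Blue points passed the test, grey points did not, circles mark named genes and the line marks equal values. Nat8f5 stands farthest above the line and Il1a farthest below it, while Sox1 and Ttr lie close to it.

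Among the 20 largest differences toward GFP-positive cells, taken from non-overlapping genes past the test, Plcd4, a phospholipase C, had 9.49, 9.37 and 8.75 in the GFP-positive and 5.50, 5.43 and 5.37 in the GFP-negative samples, a difference of 3.77 ± 0.17 (SE; limma, adjusted p = 2.16e-07). Hapln1, which links hyaluronan to proteoglycans in the extracellular matrix, had 10.07, 9.99 and 9.65 in the GFP-positive and 6.41, 6.17 and 6.28 in the GFP-negative samples, 12.3-fold higher. Elovl2, which elongates polyunsaturated fatty acids, had 9.30, 8.89 and 8.50 in the GFP-positive and 4.77, 5.87 and 4.84 in the GFP-negative samples, 13.4-fold higher. The narrowest gap between the groups among these genes was 2.63.

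Further genes of this set had known roles at the astrocyte membrane. Gjb6, the gap junction protein connexin 30, was 12.4-fold higher (3.63 ± 0.27, SE) and Mlc1, a membrane protein of astrocyte endfeet, was 12.3-fold higher (3.62 ± 0.31, SE). Both had their lowest GFP-negative value in replicate 3, 6.96, 6.73 and 5.85 for Gjb6 and 8.23, 7.37 and 6.64 for Mlc1. The tight junction family gene Cldn10 differed by 3.40, the peptide transporter gene Slc15a2 by 3.42, the GABA transporter gene Slc6a11 by 3.39 and the cystine and glutamate exchanger gene Slc7a11 by 3.34. The BMP receptor gene Bmpr1b had 9.71, 9.57 and 8.95 in the GFP-positive and 6.60, 6.09 and 5.12 in the GFP-negative samples.

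The rest of the 20 were enzymes, membrane transport genes, a secreted protein and genes of less settled function. Nat1, an arylamine acetyltransferase, had 8.86, 8.26 and 7.22 in the GFP-positive and 3.94, 4.86 and 4.35 in the GFP-negative samples, so that GFP-positive replicate 3 was the lowest of its group. Hsd11b1, which regenerates active glucocorticoid, differed by 3.55 ± 0.30 (SE), Itih3, a hyaluronan-binding inhibitor family protein, by 3.38 ± 0.17 and Lix1 by 3.79 ± 0.34. The other members were Nat8f5, Atp13a4, Slc39a12, Aqp4, Papss2 and Cyp4f15, with differences from 3.80 to 4.91. All 20 passed the test under each alternative that tested them.

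Among the 20 largest differences toward GFP-negative cells, Aif1, the microglial protein Iba1, had 4.71, 5.18 and 5.90 in the GFP-positive and 9.89, 9.54 and 9.47 in the GFP-negative samples, 20.7-fold lower (-4.37 ± 0.32, SE; limma, adjusted p = 4.50e-06). Ly86, the partner of a Toll-like receptor relative, had 5.30, 5.25 and 5.52 in the GFP-positive and 9.94, 9.29 and 9.36 in the GFP-negative samples, and no group spread over more than 0.65. Adgre1, a surface antigen of macrophages, had 4.01, 4.14 and 4.28 in the GFP-positive and 8.38, 8.28 and 7.30 in the GFP-negative samples, with GFP-negative replicate 3 lowest of its group.

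Other members of this set had a higher level in GFP-positive replicate 3 than in its group. Ctss, the lysosomal protease cathepsin S, had 6.50, 7.07 and 9.11 in the GFP-positive and 11.63, 11.60 and 11.74 in the GFP-negative samples. Ccl3, a chemokine, had 5.77, 5.87 and 7.57 in the GFP-positive and 10.68, 10.15 and 10.92 in the GFP-negative samples, and C3ar1, the receptor of a complement fragment, had 5.95, 6.14 and 7.61 in the GFP-positive and 10.57, 10.06 and 10.80 in the GFP-negative samples. Tyrobp, the signalling adaptor of Trem2 and related receptors, had 5.85, 6.13 and 7.84 in the GFP-positive and 10.64, 10.19 and 10.41 in the GFP-negative samples. In each of these genes GFP-positive replicate 3 was the highest of its group. This set, too, was taken from genes whose groups did not overlap.

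Further genes of the set included the signalling regulator Rgs1 (-3.93), the lysosomal membrane gene Laptm5 (-3.89), the lysophospholipid receptor gene Gpr34 (-3.89) and the granule proteoglycan gene Srgn (-3.77). Xlr, an X-linked gene first described in lymphocytes, had 2.86, 3.35 and 3.70 in the GFP-positive and 7.81, 7.71 and 7.44 in the GFP-negative samples (-4.35 ± 0.19, SE), with GFP-positive values at the low end of the array. Pdgfra, the growth factor receptor of oligodendrocyte precursors, was the only member of the 20 that stood in the precursor list. The set also held Il1a, the globin genes Hbb-bt and Hbb-b2, Cd53, Arhgdib and Csf1r. All 20 passed the test under each alternative that tested them.

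**Figure D3:**
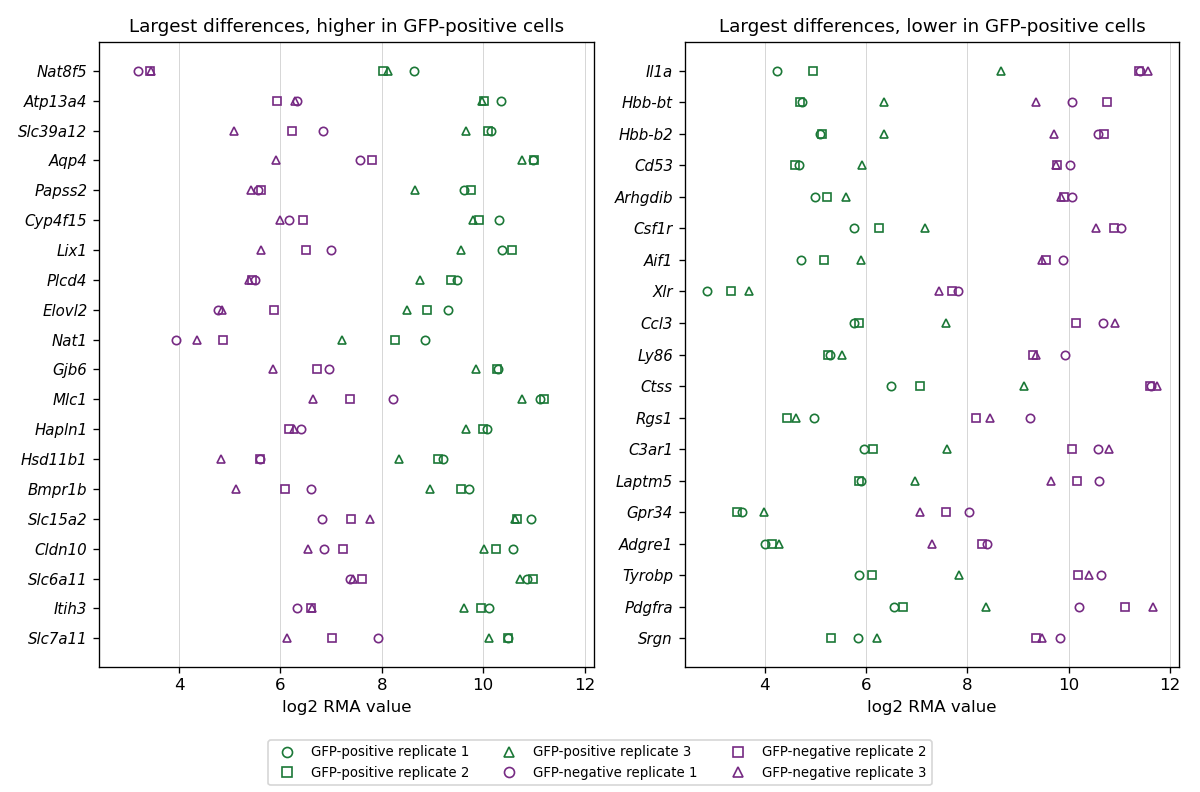
Log2 expression values (horizontal axes) of genes named in the text with the largest positive (left) and largest negative differences (right) among called genes without overlap. Each symbol is 1 young sample, green for GFP-positive and purple for GFP-negative, with the shape for the replicate. GFP-positive replicate 3 (green triangles) lies nearest to the GFP-negative samples for Il1a, Ctss, Ccl3, C3ar1 and Tyrobp.

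The gene lists of this report and their members were chosen with earlier results of these data known. Their counts and medians were partly set by that choice. Each count is to be read beside the shares over all genes, 7.68% higher and 9.30% lower. Without both replicate 1 samples the counts over all genes fell from 1533 to 777 higher and from 1857 to 1064 lower. A smaller count in that fit is thus not particular to a list. Most genes named from the lists had the smallest p, and 3342 of the 3390 genes past the test had groups without overlap. Their gaps and lack of overlap are therefore no added evidence. Transcription factors of neural stem cells and forebrain patterning were higher in GFP-positive cells. Of 30 measured, 21 were higher (15 without both replicate 1 samples) and 0 lower, with a median difference of 0.95. Gli3, a hedgehog pathway factor, had 8.81, 8.59 and 8.17 in the GFP-positive and 5.61, 5.72 and 5.33 in the GFP-negative samples, a difference of 2.97 ± 0.17 (SE; adjusted p = 8.86e-07). Pax6, which specifies dorsal forebrain progenitors, had 8.56, 8.45 and 8.09 in the GFP-positive and 4.89, 5.52 and 5.65 in the GFP-negative samples. Lhx2, a forebrain patterning factor, had 8.92, 9.06 and 8.63 in the GFP-positive and 6.31, 6.74 and 6.43 in the GFP-negative samples, and the narrowest gap among these 3 genes was 1.89.

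Gli2, the main activator of the hedgehog pathway, differed by 1.64 ± 0.12 (SE) and Sox9, which drives glial fate, by 2.53 ± 0.19. Sox1 itself had 7.56, 7.55 and 7.32 in the GFP-positive and 7.07, 7.24 and 7.28 in the GFP-negative samples and did not pass the test (adjusted p = 0.123), though it did with array weights (0.0349). Its difference had a 95% interval of 0.03 to 0.53, and the transcript of the reporter itself was not analysed here. Sox2, its SoxB1 relative, had 10.80, 10.75 and 10.12 in the GFP-positive and 8.95, 9.61 and 9.94 in the GFP-negative samples and was higher by 1.06 (adjusted p = 0.0111). The call was lost without both replicate 1 samples (0.112) and also with the replicate number as a block.

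Genes of intermediate progenitors and neuroblasts, the cells that radial stem cells produce, were higher in part. Of 16 measured, 5 were higher, 0 lower (1 without GFP-positive replicate 2), and the median was 0.63. Eomes, the factor of intermediate progenitors, had 6.09, 6.11 and 7.41 in the GFP-positive and 5.03, 5.22 and 5.34 in the GFP-negative samples (adjusted p = 0.00710). The surface gene Cd24a had 8.68, 9.56 and 10.11 in the GFP-positive and 7.45, 7.69 and 7.87 in the GFP-negative samples, and Dlx1, a factor of GABA neuron precursors, had 7.45, 6.76 and 6.96 in the GFP-positive and 5.89, 5.95 and 5.98 in the GFP-negative samples. The groups of all 3 did not overlap, and Eomes was highest in GFP-positive replicate 3.

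Neurog2 (0.68) and Neurod4 (0.97), both proneural factors, passed the test as well. As adjusted p, Neurog2 lost its call without GFP-positive replicate 3 (0.0644), GFP-negative replicate 1 (0.0929), GFP-negative replicate 2 (0.0690), both replicate 1 samples (0.117) or both 4-month-old samples (0.0624), or with only the 6 young arrays fitted (0.0559). Neurod4 lost its call without GFP-negative replicate 1 (0.107), GFP-negative replicate 2 (0.109), GFP-negative replicate 3 (0.0682), both replicate 1 samples (0.0665) or both 4-month-old samples (0.0562), or with quantile normalization (0.0702), with only the 6 young arrays fitted (0.0910) or with age as a covariate (0.0566). Dlx1 lost it without both replicate 1 samples (0.0669). The number of higher members was 3 without GFP-negative replicate 1, GFP-negative replicate 2 or both 4-month-old samples and 2 without both replicate 1 samples. Dcx, a microtubule protein of neuroblasts, had 6.50, 6.31 and 8.87 in the GFP-positive and 6.76, 6.95 and 7.83 in the GFP-negative samples. GFP-positive replicate 3 was the highest of the 6 for Dcx, and its groups overlapped.

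Of 20 genes of DNA replication and mitosis measured, 0 were higher and 0 lower by limma, with a median of 0.31. At an unadjusted p under 0.05 there were Ccna2 (0.73), Plk1 (0.45), Rrm2 (0.83), Mki67 (0.72), Pcna (-0.57) and Mcm3 (-0.78). As adjusted p, Ccna2 passed the test without GFP-positive replicate 1 (0.0350), GFP-negative replicate 3 (0.0130) or both 4-month-old samples (0.0161), or with age as a covariate (0.0202), with array weights (0.00858) or without the dimmest 1 in 3 genes (0.0448). Plk1 passed it without GFP-negative replicate 3 (0.0362), or with array weights (0.0482) and Rrm2 without GFP-positive replicate 1 (0.0285). On the lower side, Pcna passed it with only the 6 young arrays fitted (0.0338), with array weights (0.0289), without the dimmest 1 in 3 genes (0.0498) or without the dimmest 1 in 2 genes (0.0483) and Mcm3 with only the 6 young arrays fitted (0.0206) or with array weights (0.0122). Mki67, present in all cycling cells, had 5.95, 5.62 and 7.14 in the GFP-positive and 5.15, 5.69 and 5.73 in the GFP-negative samples, with GFP-positive replicate 3 highest. It had an adjusted p of 0.153 and passed the test without GFP-positive replicate 2 (0.0482). The number of higher members was 2 without GFP-positive replicate 1 or GFP-negative replicate 3 and 1 without GFP-positive replicate 2 or both 4-month-old samples. With array weights 3 were higher and 2 lower, and with only the 6 young arrays fitted 0 and 2. Ccna2, on the higher side, and Mcm3, on the lower, also passed with the replicate number as a block.

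Membrane transporters and ion channels of astrocytes clear glutamate, GABA and potassium from the extracellular space. They showed the highest median, 2.42, of lists that were chosen with earlier results known. Of 21 measured, 20 were higher (19 without both replicate 1 samples) and 1 was lower. Slc6a11 had 10.87, 10.98 and 10.72 in the GFP-positive and 7.37, 7.62 and 7.43 in the GFP-negative samples, and Atp13a4, a P-type ATPase, had 10.36, 10.02 and 9.97 in the GFP-positive and 6.33, 5.93 and 6.28 in the GFP-negative samples. Slc7a10, a transporter of small neutral amino acids, had 9.92, 9.88 and 9.91 in the GFP-positive and 7.44, 6.81 and 7.21 in the GFP-negative samples, a difference of 2.75 ± 0.15 (SE; adjusted p = 7.03e-07). The 3 GFP-positive samples spread over at most 0.39 in these genes, and the narrowest gap between the groups was 2.44.

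Slc4a4, a bicarbonate cotransporter, differed by 3.18 ± 0.17 (SE) and the mitochondrial glutamate carrier gene Slc25a18 by 2.72 ± 0.16. The 1 lower member was Slc6a9, a glycine transporter, with 8.42, 8.79 and 8.79 in the GFP-positive and 9.93, 9.71 and 9.59 in the GFP-negative samples (-1.07 ± 0.18, SE; adjusted p = 0.00179). The potassium channel gene Kcnj10 was higher by 0.51, a call lost without GFP-positive replicate 1 (0.0596), GFP-positive replicate 2 (0.0796), GFP-negative replicate 2 (0.0506), GFP-negative replicate 3 (0.0524) or both replicate 1 samples (0.116), as adjusted p. It was named after its values were seen.

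Surface receptors of astrocytes and stem cells were mostly higher as well. Of 23 measured, 17 were higher (15 without both replicate 1 samples) and 1 was lower, with a median of 1.17. Ntsr2, a neurotensin receptor found on astrocytes, had 10.32, 10.34 and 10.03 in the GFP-positive and 7.21, 7.25 and 7.18 in the GFP-negative samples, 8.07-fold higher (limma, adjusted p = 1.39e-07). The fibroblast growth factor receptor gene Fgfr3 had 9.49, 9.38 and 9.01 in the GFP-positive and 6.45, 6.75 and 6.35 in the GFP-negative samples, and Fgfr1 had 9.39, 9.52 and 9.16 in the GFP-positive and 7.49, 7.46 and 7.47 in the GFP-negative samples. The GFP-negative values of Fgfr1 spread over 0.028, and none of these 3 genes had overlapping groups.

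The 1 lower receptor was the glutamate receptor gene Grm5 (-1.17, adjusted p = 0.0208). It lost its call without GFP-positive replicate 1 (0.0583), GFP-positive replicate 2 (0.0802), GFP-negative replicate 1 (0.0599), GFP-negative replicate 2 (0.0856) or both replicate 1 samples (0.127), as adjusted p.

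Gap junction and adhesion genes followed, with 14 of 20 higher (12 without both replicate 1 samples), 0 lower (1 without GFP-negative replicate 3) and a median of 1.01. Cldn10 had 10.58, 10.26 and 10.01 in the GFP-positive and 6.86, 7.23 and 6.55 in the GFP-negative samples. Ctnnd2, a catenin of neural junctions, had 9.88, 10.02 and 9.85 in the GFP-positive and 8.17, 8.43 and 8.54 in the GFP-negative samples, and Lrig1, a brake on growth factor receptors, had 8.60, 8.57 and 8.20 in the GFP-positive and 6.30, 6.39 and 6.25 in the GFP-negative samples, a difference of 2.15 ± 0.19 (SE; adjusted p = 1.41e-05). The narrowest gap among these 3 genes was 1.30. Gjb6 and Mlc1 completed the 5 members with the smallest p.

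Secreted and matrix proteins were higher in 21 of 25 (20 without both replicate 1 samples) and lower in 2, at a median of 1.52. Mfge8, which tags dying cells for uptake, had 10.53, 10.34 and 10.35 in the GFP-positive and 7.76, 7.44 and 7.41 in the GFP-negative samples, a difference of 2.87 ± 0.13 (SE; adjusted p = 2.01e-07). Pla2g7, which degrades platelet-activating factor, had 11.67, 11.61 and 11.37 in the GFP-positive and 8.71, 8.85 and 8.17 in the GFP-negative samples, and Lcat, which esterifies cholesterol on lipoproteins, had 9.86, 9.63 and 9.72 in the GFP-positive and 7.10, 6.56 and 7.13 in the GFP-negative samples. The narrowest gap among these genes was 2.50.

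The lower members were Vcan, a proteoglycan of oligodendrocyte precursors and vessels, and Sparc, a matrix protein of microglia and endothelium. Vcan had 7.07, 7.33 and 7.87 in the GFP-positive and 8.63, 9.56 and 10.23 in the GFP-negative samples (-2.05 ± 0.37, SE). Sparc had 10.58, 10.79 and 10.26 in the GFP-positive and 11.44, 11.20 and 11.26 in the GFP-negative samples (-0.75 ± 0.16, SE) and lost its call without both replicate 1 samples (0.0763), as adjusted p. Sparcl1, the relative of Sparc made by astrocytes, was 0.89, in the other direction, and was named after its values were seen.

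Of 19 enzymes of amino acid and glutamine metabolism, 11 were higher and 2 lower, at a median of 0.92, and without both replicate 1 samples 6 were higher and 1 lower. Gldc, which cleaves glycine in mitochondria, had 9.29, 9.29 and 8.88 in the GFP-positive and 6.28, 6.32 and 6.64 in the GFP-negative samples. Prodh, which starts proline breakdown, had 9.57, 9.20 and 8.90 in the GFP-positive and 7.05, 6.52 and 6.44 in the GFP-negative samples, and Aldh1l1, the folate enzyme used to mark astrocytes, had 9.16, 9.09 and 8.21 in the GFP-positive and 6.04, 6.28 and 5.77 in the GFP-negative samples. GFP-positive replicate 3 was the lowest of its group for all 3, and no groups overlapped.

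Glud1, which turns glutamate into ketoglutarate, differed by 1.80 ± 0.15 (SE) and the lysine breakdown enzyme gene Aass by 2.25 ± 0.23. The lower members were Gatm, which makes the creatine precursor and is abundant in oligodendrocytes, with 8.08, 8.93 and 9.27 in the GFP-positive and 11.16, 11.11 and 11.09 in the GFP-negative samples (-2.36 ± 0.32, SE), and Shmt1 (-0.44). The call of Shmt1 was lost without GFP-positive replicate 1 (0.107), GFP-positive replicate 3 (0.0527), GFP-negative replicate 1 (0.0551), GFP-negative replicate 2 (0.0587), GFP-negative replicate 3 (0.0747), both replicate 1 samples (0.170) or both 4-month-old samples (0.116), as adjusted p.

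Of 27 enzymes of fatty acid and acyl-CoA metabolism, 18 were higher (13 without both replicate 1 samples) and 0 lower, at a median of 1.05. Plpp3, a phosphatase of lysophosphatidic and phosphatidic acid, had 11.27, 11.14 and 10.88 in the GFP-positive and 8.28, 8.07 and 8.26 in the GFP-negative samples, a difference of 2.89 ± 0.14 (SE; adjusted p = 2.49e-07). Acsl6, which activates long fatty acids such as docosahexaenoic acid, had 10.07, 9.98 and 9.66 in the GFP-positive and 7.33, 7.47 and 6.99 in the GFP-negative samples, and the desaturase gene Fads2 had 11.04, 11.002 and 10.56 in the GFP-positive and 8.31, 8.59 and 8.28 in the GFP-negative samples. Acss1, which makes acetyl-CoA in mitochondria, differed by 1.90 ± 0.13 and Acsbg1, an acyl-CoA synthetase of brain, by 2.67 ± 0.19. The groups of these 5 genes did not overlap, as in 3342 of the 3390 genes past the test.

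Detoxification and redox enzymes were higher in 17 of 27 (17 without both replicate 1 samples) and lower in 0, at a median of 1.39. Papss2, which makes the sulfate donor, had 9.62, 9.76 and 8.66 in the GFP-positive and 5.55, 5.62 and 5.42 in the GFP-negative samples. Ephx2, the soluble epoxide hydrolase, had 7.98, 8.21 and 7.35 in the GFP-positive and 4.88, 4.65 and 4.63 in the GFP-negative samples, 8.72-fold higher (limma, adjusted p = 1.44e-06). The cytochrome P450 genes Cyp4f15 and Cyp4f14 differed by 3.80 ± 0.16 and 2.70 ± 0.17 (SE), and Cyp2d22 by 1.80 ± 0.17. Such P450 genes have close relatives, and probes can read more than 1 of them.

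The Nat8 family of acetyltransferases of the endoplasmic reticulum, a cluster of close copies in the mouse, was higher as a group. Of 10 listed, 6 were measured and 5 were higher, also without both replicate 1 samples. Nat8f5 had 8.64, 8.02 and 8.12 in the GFP-positive and 3.19, 3.43 and 3.44 in the GFP-negative samples, a difference of 4.91 ± 0.22 (SE), and its GFP-negative values were near the low end of the array. Nat8, its founding member, had 8.10, 7.57 and 7.69 in the GFP-positive and 5.01, 5.96 and 5.69 in the GFP-negative samples (4.70-fold higher, adjusted p = 8.42e-05). Nat8f4 differed by 1.36 ± 0.22, Nat8f1 by 1.20 ± 0.16 and Nat8f2 by 0.75 ± 0.12. Nat8l, which makes N-acetylaspartate in neurons and is not part of the cluster, had 7.11, 7.12 and 6.76 in the GFP-positive and 6.95, 6.82 and 6.72 in the GFP-negative samples, with an interval of the difference from -0.19 to 0.51 (adjusted p = 0.503). Probes of the cluster members may read more than 1 copy.

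Genes of the Hippo and YAP pathway and the glial cytoskeleton were mixed, 5 of 16 higher and 1 lower (2 without GFP-negative replicate 3), at a median of 0.37. The shares over all genes were 7.68% higher and 9.30% lower. Tead1, the DNA-binding partner of YAP, had 8.96, 9.02 and 8.83 in the GFP-positive and 7.16, 7.15 and 7.08 in the GFP-negative samples (1.81 ± 0.11, SE; adjusted p = 1.20e-06). Ezr, a membrane linker of astrocyte processes, had 9.69, 9.81 and 8.97 in the GFP-positive and 7.66, 7.51 and 7.15 in the GFP-negative samples, while its relative Msn, the 1 lower gene, had 8.42, 8.48 and 8.39 in the GFP-positive and 9.75, 9.73 and 9.32 in the GFP-negative samples (-1.17 ± 0.15, SE). Yap1 differed by 1.04 ± 0.18 and the nitric oxide pathway gene Ddah1 by 1.61 ± 0.19. Gfap had 9.69, 10.12 and 8.54 in the GFP-positive and 6.93, 7.34 and 5.68 in the GFP-negative samples, with replicate 3 the lowest in both fractions, and passed under each alternative. Nes, an intermediate filament gene of stem cells that endothelium also expresses, had 4.99, 5.26 and 5.53 in the GFP-positive and 5.67, 5.69 and 5.51 in the GFP-negative samples and did not pass (adjusted p = 0.287).

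Of 20 long noncoding RNAs listed, 7 were measured, 1 was higher and 1 lower (2 without GFP-positive replicate 3, GFP-negative replicate 3 or both 4-month-old samples). The shares over all genes were 7.68% higher and 9.30% lower. Pantr1, transcribed beside a neural factor gene, had 10.89, 10.71 and 9.64 in the GFP-positive and 8.14, 7.99 and 7.41 in the GFP-negative samples (2.56 ± 0.31, SE; adjusted p = 0.000147). Pvt1, known from tumours, had 5.39, 5.67 and 5.46 in the GFP-positive and 6.60, 7.19 and 6.60 in the GFP-negative samples (-1.29 ± 0.17, SE). Malat1, a nuclear RNA that nearly all cells make, had 12.31, 12.20 and 12.36 in the GFP-positive and 11.99, 12.11 and 12.33 in the GFP-negative samples, and it did not pass (adjusted p = 0.451).

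Transcription factors and signalling genes of microglia were lower, 18 of 22 (15 without both replicate 1 samples) with 0 higher and a median of -1.19. Spi1, the myeloid master factor PU.1, had 5.49, 5.56 and 5.56 in the GFP-positive and 6.92, 6.79 and 6.94 in the GFP-negative samples, and the groups were 1.23 apart (-1.35 ± 0.10, SE; adjusted p = 4.68e-06). Inpp5d, a lipid phosphatase of blood cells, had 6.20, 6.30 and 6.61 in the GFP-positive and 9.54, 9.18 and 8.64 in the GFP-negative samples, and Vav1, a guanine nucleotide exchange factor of blood cells, had 4.79, 4.91 and 4.69 in the GFP-positive and 6.93, 7.22 and 6.99 in the GFP-negative samples. Runx1 (-1.77 ± 0.17) and Ikzf1 (-1.83 ± 0.20), both blood lineage factors, had groups that did not overlap.

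Microglia surface receptors had a median of -2.67, with 26 of 27 lower, also without both replicate 1 samples, and 0 higher. Ptprc, the leukocyte antigen CD45, had 5.74, 5.61 and 6.01 in the GFP-positive and 8.80, 8.92 and 9.29 in the GFP-negative samples, 9.30-fold lower (limma, adjusted p = 2.16e-07). Siglech, a lectin of microglia, had 6.39, 6.33 and 6.74 in the GFP-positive and 9.83, 9.43 and 9.32 in the GFP-negative samples, and P2ry12, the receptor by which resting microglia sense ATP and ADP, had 6.09, 6.20 and 6.41 in the GFP-positive and 9.69, 9.41 and 9.03 in the GFP-negative samples. Cd33 differed by -2.19 ± 0.12 and Cd53 by -4.78 ± 0.28 (SE). The narrowest gap among the 5 genes was 1.86. Trem2 was the 1 receptor that did not pass, with 7.07, 7.06 and 7.17 in the GFP-positive and 7.23, 7.27 and 7.46 in the GFP-negative samples (-0.22 ± 0.14, SE; adjusted p = 0.325).

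Of 12 genes of macrophages at the brain borders, 1 was lower and 0 higher, with a median of -0.14. That is near the share over all genes, of which 9.30% were lower. The 1 lower gene was the scavenger receptor gene Stab1, with 5.79, 5.77 and 5.89 in the GFP-positive and 6.45, 6.21 and 6.15 in the GFP-negative samples (-0.46 ± 0.12, SE; adjusted p = 0.0189), and its call was lost without GFP-positive replicate 1 (0.0654), GFP-positive replicate 2 (0.0663), GFP-negative replicate 1 (0.0795) or both replicate 1 samples (0.192), as adjusted p. The number of lower members was 0 without GFP-positive replicate 1, GFP-positive replicate 2, GFP-negative replicate 1 or both replicate 1 samples and 4 without GFP-negative replicate 3 or both 4-month-old samples. Mrc1, the mannose receptor, had 4.89, 4.71 and 5.05 in the GFP-positive and 6.46, 6.24 and 4.84 in the GFP-negative samples. It did not pass (adjusted p = 0.0657) but was lower past the test without GFP-negative replicate 3 (4.26e-05) or both 4-month-old samples (6.48e-05), or with array weights (0.00245), as adjusted p.

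Cytokines and chemokines were lower in 16 of 20 (11 without both replicate 1 samples) and higher in 1, with a median of -0.99. Ccl12, a monocyte attractant of the mouse, had 4.39, 4.51 and 4.90 in the GFP-positive and 8.24, 7.94 and 8.10 in the GFP-negative samples, 11.2-fold lower (limma, adjusted p = 2.01e-07). Il1b, an inflammatory cytokine, had 6.04, 6.11 and 6.57 in the GFP-positive and 9.90, 9.80 and 9.53 in the GFP-negative samples, and the chemokine gene Ccl4 had 5.67, 5.61 and 6.12 in the GFP-positive and 8.13, 7.76 and 8.13 in the GFP-negative samples. Tnf differed by -2.64 ± 0.26 (SE). The 1 higher gene was Il18, a cytokine that inflammasomes activate, with 9.89, 9.75 and 9.62 in the GFP-positive and 7.83, 7.85 and 8.47 in the GFP-negative samples (1.70 ± 0.19, SE; adjusted p = 9.78e-05), in which the groups did not overlap.

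Genes of oligodendrocyte precursors were lower in 14 of 16, also without both replicate 1 samples, with 0 higher and a median of -1.14. Enpp6, a mark of newly forming oligodendrocytes, had 5.27, 4.94 and 5.50 in the GFP-positive and 7.58, 8.12 and 7.84 in the GFP-negative samples, 6.11-fold lower (limma, adjusted p = 1.88e-06). Olig1 had 8.26, 8.50 and 8.57 in the GFP-positive and 10.01, 9.84 and 10.07 in the GFP-negative samples and Sox10 had 7.49, 7.55 and 7.63 in the GFP-positive and 8.76, 8.94 and 8.72 in the GFP-negative samples, both lineage factors whose groups did not overlap. Pdgfra had 6.55, 6.72 and 8.36 in the GFP-positive and 10.20, 11.12 and 11.67 in the GFP-negative samples. Its GFP-positive samples spread over 1.81 and its GFP-negative samples over 1.47. Bcas1, another gene of newly formed oligodendrocytes, differed by -2.72 ± 0.23 (SE).

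Myelin and mature oligodendrocyte genes had the lowest median of the lists, -2.69, with 21 of 22 lower (19 without both replicate 1 samples) and 0 higher. Fa2h, which hydroxylates myelin lipids, had 6.84, 6.91 and 7.52 in the GFP-positive and 10.19, 10.11 and 9.98 in the GFP-negative samples, a difference of -3.01 ± 0.21 (SE; adjusted p = 3.06e-06). Aspa, which breaks down N-acetylaspartate, had 6.59, 6.88 and 7.69 in the GFP-positive and 10.18, 10.16 and 9.98 in the GFP-negative samples. The claudin gene Cldn11 differed by -2.53 ± 0.18 and the myelin enzyme gene Cnp by -2.47 ± 0.18. The mean level of the list was 7.27, 7.65 and 8.12 in the GFP-positive and 10.26, 10.19 and 9.95 in the GFP-negative samples, so that the GFP-positive samples spread more.

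Endothelial genes were lower in 16 of 25, higher in 0 (1 without both 4-month-old samples), with a median of -1.51, and 9 were lower without both replicate 1 samples. Abcg2, an efflux pump of the blood-brain barrier, had 5.24, 5.89 and 5.60 in the GFP-positive and 8.94, 8.25 and 8.17 in the GFP-negative samples (-2.88 ± 0.21, SE; adjusted p = 4.17e-06). Slco1a4, a barrier anion transporter, had 4.76, 5.29 and 5.57 in the GFP-positive and 8.82, 8.45 and 7.37 in the GFP-negative samples, and Ly6c1, a surface antigen of vessels, had 5.86, 6.51 and 6.38 in the GFP-positive and 10.66, 9.65 and 8.83 in the GFP-negative samples. In all 3 genes GFP-negative replicate 3 was the lowest of its group. The mean level of the list was 8.62, 8.14 and 7.33 in the GFP-negative and 6.32, 6.77 and 6.68 in the GFP-positive samples. Ly6a differed by -2.66 ± 0.37 and the multidrug pump gene Abcb1a by -2.63 ± 0.37.

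Of 17 mural and fibroblast genes, 7 were lower and 1 higher, at a median of -0.49, beside 9.30% of all genes lower and 7.68% higher. Rgs5, a pericyte gene, had 6.07, 7.18 and 7.26 in the GFP-positive and 9.21, 9.06 and 7.85 in the GFP-negative samples, and Acta2, the actin of smooth muscle, had 5.87, 6.75 and 6.41 in the GFP-positive and 8.68, 8.73 and 7.06 in the GFP-negative samples. Vtn, a matrix protein of pericytes, had 5.93, 6.77 and 7.57 in the GFP-positive and 9.40, 9.02 and 7.77 in the GFP-negative samples. The number of lower members was 4 without GFP-positive replicate 1 or GFP-positive replicate 2, 3 without GFP-negative replicate 1 or GFP-negative replicate 2 and 1 without both replicate 1 samples. As adjusted p, Rgs5 was lost without both replicate 1 samples (0.0562), Acta2 without both replicate 1 samples (0.0980) and Vtn without GFP-negative replicate 1 (0.0549), GFP-negative replicate 2 (0.0503) or both replicate 1 samples (0.146). Pdgfrb, a receptor of pericytes, went the other way with 7.70, 7.85 and 7.58 in the GFP-positive and 6.98, 7.09 and 6.35 in the GFP-negative samples (0.90 ± 0.17, SE; adjusted p = 0.00397). Cspg4 (-0.92) stands in this list and in that of oligodendrocyte precursors.

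Of 12 genes of dentate granule neurons, 1 was higher and 2 were lower, at a median of 0.034. Over all genes 7.68% were higher and 9.30% lower, so the 1 higher gene is near that share. C1ql3, a secreted synaptic organiser, had 5.34, 5.48 and 6.98 in the GFP-positive and 8.79, 8.81 and 8.90 in the GFP-negative samples (-2.90 ± 0.34, SE; adjusted p = 0.000113). Pdzd2 had 5.997, 5.98 and 6.27 in the GFP-positive and 6.69, 6.79 and 7.02 in the GFP-negative samples, while Rfx3, a ciliogenic transcription factor, was higher with 9.44, 9.47 and 9.37 in the GFP-positive and 8.50, 8.29 and 8.17 in the GFP-negative samples. The groups of these 3 genes did not overlap. Prox1, the factor that defines granule neurons, had 7.00, 7.56 and 8.67 in the GFP-positive and 8.73, 8.76 and 8.17 in the GFP-negative samples, and its groups overlapped, with GFP-positive replicate 3 highest of its group. It did not pass (adjusted p = 0.159), but was lower past the test without GFP-positive replicate 3 (0.00844) or both 4-month-old samples (0.00447), or with array weights (0.0168), as adjusted p. It was named after its values were seen.

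Of 14 pyramidal neuron genes, 4 were lower and 1 was higher, at a median of -0.35. Over all genes 9.30% were lower and 7.68% higher, so the 1 higher gene is near that share. Fezf2, a forebrain factor also found in dentate precursors, was the higher gene with 8.09, 8.49 and 8.01 in the GFP-positive and 6.91, 7.05 and 6.58 in the GFP-negative samples (1.35 ± 0.17, SE; adjusted p = 0.000213). The lower genes were Rasgrf1 (-1.30), Tbr1 (-1.37), Neurod6 (-2.16) and the vesicular glutamate transporter gene Slc17a7 (-1.52). As adjusted p, Neurod6 was lost without GFP-positive replicate 1 (0.0682), GFP-positive replicate 2 (0.0689), GFP-negative replicate 1 (0.0791), GFP-negative replicate 2 (0.0850) or both replicate 1 samples (0.185), or with only the 6 young arrays fitted (0.0711). Slc17a7 was lost without GFP-positive replicate 1 (0.0680), GFP-negative replicate 1 (0.0792), GFP-negative replicate 2 (0.0883) or both replicate 1 samples (0.182), or with only the 6 young arrays fitted (0.0731). Tbr1 was lost without GFP-negative replicate 1 (0.0566) or both replicate 1 samples (0.146) and Rasgrf1 without both replicate 1 samples (0.0743). Slc17a7 had its lowest GFP-negative value in replicate 3 (8.98, 8.51 and 6.89). The number of lower members was 2 without GFP-positive replicate 1 or GFP-negative replicate 2, 1 without GFP-negative replicate 1, 7 without GFP-negative replicate 3 and 0 without both replicate 1 samples.

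Of 19 pan-neuronal and synaptic genes measured, 5 were lower and 0 higher (1 without GFP-negative replicate 3), at a median of -0.79. The shares over all genes were 9.30% lower and 7.68% higher. The number of lower members was 3 without GFP-positive replicate 2, GFP-negative replicate 1 or GFP-negative replicate 2, 13 without GFP-negative replicate 3, 1 without both replicate 1 samples and 10 without both 4-month-old samples. The mean level of the list was 8.81, 8.55 and 7.49 in the GFP-negative and 7.64, 7.14 and 7.58 in the GFP-positive samples. Nefm, a neurofilament gene, had 4.84, 5.23 and 4.65 in the GFP-positive and 7.40, 7.83 and 5.78 in the GFP-negative samples, and its groups did not overlap. The call of Nefm was lost without both replicate 1 samples (0.0763), as adjusted p. Other lower genes were Stmn3 (-1.11), Vsnl1 (-1.93) and Syn1 (-0.79). Stmn3 was lost without both replicate 1 samples (0.130), Vsnl1 without GFP-positive replicate 2 (0.0666), GFP-negative replicate 1 (0.0852), GFP-negative replicate 2 (0.0737) or both replicate 1 samples (0.0982). Syn1 was lost without GFP-positive replicate 2 (0.149), GFP-positive replicate 3 (0.0761), GFP-negative replicate 1 (0.170), GFP-negative replicate 2 (0.129) or both replicate 1 samples (0.103), or with quantile normalization (0.0639), with only the 6 young arrays fitted (0.0903) or with array medians set equal (0.0530).

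Genes of GABA interneurons were higher in 7 of 19 and lower in 2, at a median of 0.57. Over all genes 7.68% were higher and 9.30% lower, so the 2 lower genes are near that share. The higher genes included Dlx5, Npy, Sst, Slc32a1, Gad2 and Dlx6. Npy, a neuropeptide gene, had 7.36, 8.002 and 7.88 in the GFP-positive and 6.54, 6.63 and 6.85 in the GFP-negative samples (1.07 ± 0.23, SE; adjusted p = 0.00786) and passed under each alternative. Sst, the neuropeptide somatostatin, had 9.87, 8.22 and 8.80 in the GFP-positive and 6.72, 7.68 and 6.74 in the GFP-negative samples, and Gad2, which makes GABA, had 8.66, 7.00 and 7.59 in the GFP-positive and 5.93, 5.73 and 5.91 in the GFP-negative samples. GFP-positive replicate 1 was the highest of all 6 samples for Sst and Gad2, and their groups did not overlap.

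The number of higher interneuron genes was 4 without GFP-positive replicate 1 or both 4-month-old samples and 1 without both replicate 1 samples. Among all genes 777 were higher without both replicate 1 samples, against 1533 with all samples. As adjusted p, Sst was lost without GFP-negative replicate 1 (0.0522), both replicate 1 samples (0.134) or both 4-month-old samples (0.0617) and Gad2 without GFP-positive replicate 1 (0.0630), GFP-negative replicate 2 (0.0582), both replicate 1 samples (0.127) or both 4-month-old samples (0.0598). The GABA vesicle transporter gene Slc32a1 was lost without GFP-positive replicate 1 (0.0593), both replicate 1 samples (0.125) or both 4-month-old samples (0.0692) and the forebrain factor gene Dlx6 without GFP-positive replicate 1 (0.0752), GFP-positive replicate 3 (0.107), GFP-negative replicate 1 (0.128), GFP-negative replicate 2 (0.0946) or both replicate 1 samples (0.218). Its neighbour Dlx5 was lost without both replicate 1 samples (0.0684). The lower genes were Erbb4 (-1.22 ± 0.23, SE), the neuregulin receptor of interneurons, and Ndnf (-1.23, adjusted p = 0.0480). Ndnf had 6.04, 5.69 and 5.81 in the GFP-positive and 6.78, 6.36 and 8.09 in the GFP-negative samples and lost its call without GFP-positive replicate 1 (0.0808), GFP-positive replicate 2 (0.122), GFP-positive replicate 3 (0.103), GFP-negative replicate 1 (0.0719), GFP-negative replicate 3 (0.0914), both replicate 1 samples (0.112) or both 4-month-old samples (0.164), or with quantile normalization (0.0505), with only the 6 young arrays fitted (0.0831) or with array weights (0.0892).

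Of 18 ependymal and motile cilia genes, 1 was higher and 0 lower, at a median of 0.42, no more than the 7.68% of all genes that were higher. The 1 higher gene was Rarres2, the chemoattractant chemerin, with 9.53, 9.73 and 9.12 in the GFP-positive and 8.75, 8.22 and 7.73 in the GFP-negative samples (adjusted p = 0.0257), and its call was lost without GFP-positive replicate 1 (0.0743), GFP-positive replicate 2 (0.0878), GFP-negative replicate 2 (0.0742), GFP-negative replicate 3 (0.0797), both replicate 1 samples (0.0515) or both 4-month-old samples (0.0686), as adjusted p. The number of higher members was 0 without GFP-positive replicate 1, GFP-positive replicate 2, GFP-negative replicate 2, GFP-negative replicate 3, both replicate 1 samples or both 4-month-old samples and 4 without GFP-positive replicate 3. The 1 lower choroid plexus gene was Enpp2, which makes lysophosphatidic acid and is also a gene of mature oligodendrocytes, with 11.21, 8.84 and 9.50 in the GFP-positive and 11.77, 11.56 and 11.54 in the GFP-negative samples. It was not past the test without GFP-positive replicate 2 (0.0554), GFP-positive replicate 3 (0.0604), GFP-negative replicate 1 (0.0642), GFP-negative replicate 2 (0.0516) or both 4-month-old samples (0.0924), or with only the 6 young arrays fitted (0.0617), as adjusted p.

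Of 19 blood cell genes listed, 14 were measured, 4 were lower and 0 higher (1 without GFP-negative replicate 3 or both 4-month-old samples). The shares over all genes were 9.30% lower and 7.68% higher. Hbb-bt had 4.73, 4.71 and 6.36 in the GFP-positive and 10.07, 10.75 and 9.35 in the GFP-negative samples and Hbb-b2 had 5.10, 5.14 and 6.36 in the GFP-positive and 10.57, 10.70 and 9.71 in the GFP-negative samples, and these adult beta-globin copies cannot be told apart with certainty. The granulocyte genes S100a9 (-1.11 ± 0.17, SE) and S100a8 (-0.64 ± 0.14, SE) were lower, S100a8 losing its call without both replicate 1 samples (0.109), as adjusted p. Alas2 and Slc4a1, genes of red cell precursors, had -0.42 and 0.14 and did not pass.

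Early response genes, which dissociation of tissue induces within minutes to hours, were lower in 13 of 22 and higher in 0, at a median of -1.23. Atf3, a stress-induced factor, had 7.83, 8.41 and 8.09 in the GFP-positive and 10.36, 10.29 and 10.52 in the GFP-negative samples (-2.28 ± 0.15, SE; adjusted p = 2.28e-06). Ier3 had 6.93, 7.38 and 7.34 in the GFP-positive and 9.80, 9.15 and 9.42 in the GFP-negative samples, and Gadd45b, a stress sensor, had 7.03, 7.88 and 6.98 in the GFP-positive and 8.53, 8.40 and 8.87 in the GFP-negative samples, with no overlap in either. The number of lower members was 8 without GFP-positive replicate 1, 6 without both replicate 1 samples and 7 without both 4-month-old samples. The mean level of the list was 7.93, 9.07 and 8.30 in the GFP-positive and 9.81, 9.61 and 9.65 in the GFP-negative samples, and the part of dissociation in other differences was not tested. Ier5 differed by -1.36 ± 0.17 and Klf6 by -1.41 ± 0.24.

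**Figure D4:**
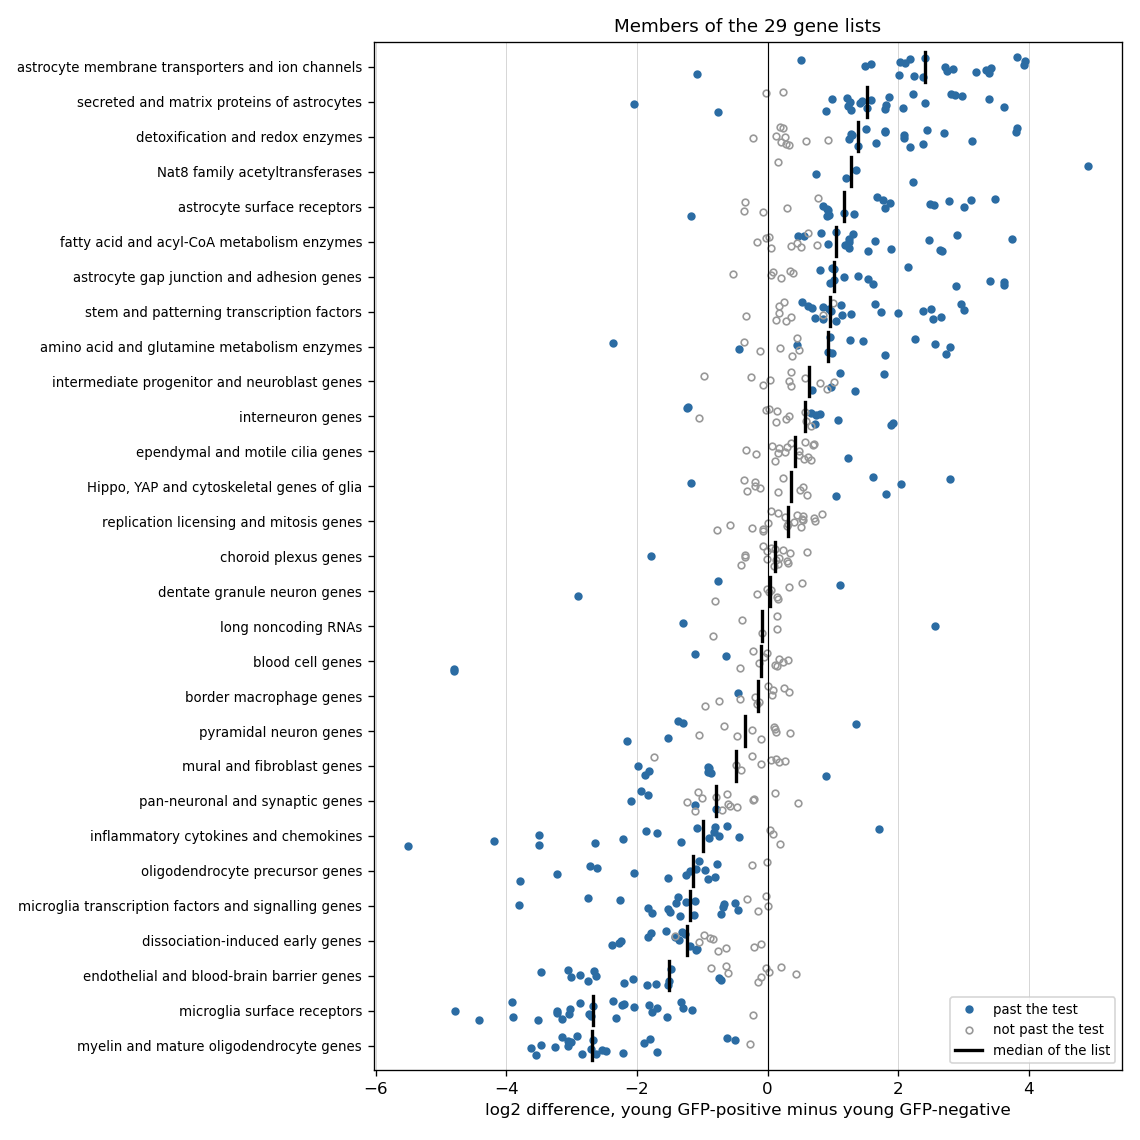
Log2 differences (GFP-positive minus GFP-negative, horizontal axis) of the measured members of 29 gene lists, ordered by their medians. The lists were chosen with earlier results of these data known. Filled blue points passed the test, open grey points did not, and black bars are medians. Transporters of astrocytes have the highest median (2.42) and myelin genes the lowest (-2.69), with the list of replication and mitosis genes between at 0.31.

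MicroRNAs are short RNAs that lower the output of messenger RNAs matched by their seed, bases 2 to 8. The array reads RNA of the locus, such as the primary transcript or precursor, and not the mature microRNA alone. Of 325 microRNA loci and host genes tested, 12 were higher and 3 lower (4.62% in either direction, against 17.0% of all genes). They were examined after the values of these genes were seen. Of the 15, 4 kept their call under each alternative that tested them, Mirlet7c-1, Mir99a and the host gene Mir99ahg, which were higher, and Mir142, which was lower, and 11 lost it under at least 1.

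The mature sequences of the loci with these calls, and of Mir100, which shares a seed with Mir99a, are shown with the seed in capitals, as given by RefSeq for GRCm38.p6. The first 2 differ by the substitution U16A, counted from 1 at the 5′ end of miR-99a-5p. Mir142 is known as a gene of blood cells.
miR-99a-5p (chr16:77598940-77598961, + strand): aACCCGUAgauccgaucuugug
miR-100-5p (chr9:41531437-41531458, + strand): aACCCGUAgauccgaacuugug
let-7c-5p (chr16:77599672-77599693, + strand): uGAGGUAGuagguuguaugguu
miR-142a-5p (chr11:87756867-87756887, + strand): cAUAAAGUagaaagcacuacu
miR-142a-3p (chr11:87756903-87756925, + strand): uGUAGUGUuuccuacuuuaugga

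The locus of let-7c-5p, Mirlet7c-1, had 6.96, 7.20 and 6.09 in the GFP-positive and 3.42, 3.98 and 4.43 in the GFP-negative samples, a difference of 2.80 ± 0.47 (SE; limma, adjusted p = 0.00162). Mir99a, which lies beside it on chromosome 16, had 9.29, 9.39 and 9.52 in the GFP-positive and 6.15, 7.10 and 8.13 in the GFP-negative samples (2.27 ± 0.43, SE). Their host gene Mir99ahg had 8.30, 8.43 and 8.36 in the GFP-positive and 6.78, 7.05 and 5.98 in the GFP-negative samples (1.76 ± 0.32, SE). The groups of all 3 did not overlap.

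Mir100 had 4.15, 5.09 and 5.04 in the GFP-positive and 4.15, 3.91 and 3.76 in the GFP-negative samples, and the gap between its groups was 0.0068. It was higher by 0.82 (adjusted p = 0.0305), a call lost without GFP-positive replicate 2 (0.111), GFP-positive replicate 3 (0.103), GFP-negative replicate 2 (0.0893), GFP-negative replicate 3 (0.0818) or both 4-month-old samples (0.193), or with quantile normalization (0.0875), with only the 6 young arrays fitted (0.0718) or with age as a covariate (0.0511), as adjusted p. Its host gene Mir100hg had 7.78, 8.70 and 9.46 in the GFP-positive and 6.58, 6.18 and 7.82 in the GFP-negative samples and lost its call without GFP-negative replicate 1 (0.0602) or GFP-negative replicate 2 (0.0657), or with only the 6 young arrays fitted (0.0567). Mir204, a locus of choroid plexus and other tissues, had 6.69, 5.61 and 5.63 in the GFP-positive and 4.43, 4.73 and 5.12 in the GFP-negative samples and lost its call without GFP-negative replicate 1 (0.0737), GFP-negative replicate 2 (0.0546) or both replicate 1 samples (0.151). Mir142 had 5.09, 5.47 and 5.53 in the GFP-positive and 6.64, 6.63 and 6.04 in the GFP-negative samples (-1.07 ± 0.18, SE; adjusted p = 0.00181), and its groups were 0.51 apart.

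**Figure D5:**
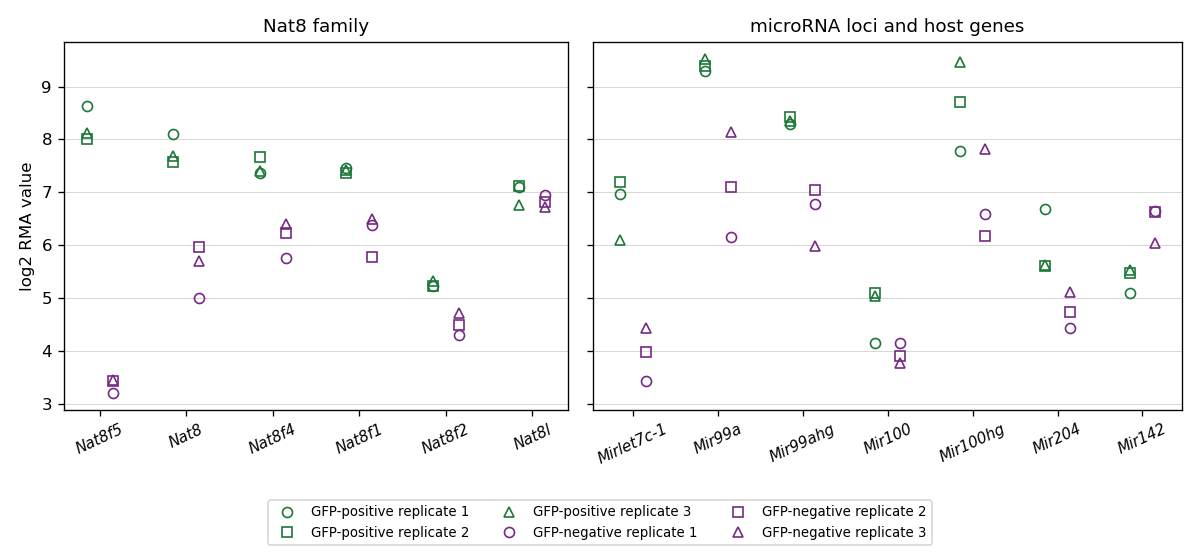
Log2 expression values (vertical axis) of 6 Nat8 family genes (left) and 7 microRNA loci and host genes (right) in the 6 young samples, green for GFP-positive and purple for GFP-negative, with the shape for the replicate. Nat8f5 has the widest gap between the groups, Nat8l overlaps, and Mir142 is the 1 locus shown that is lower in GFP-positive cells.

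Promoter windows of 300 bases, 250 before and 50 after the start site, were taken from RefSeq for GRCm38.p6 to show letters known to be bound by factors of these cells. The PU.1 motif was searched as GAGGAAGT and its reverse complement ACTTCCTC. It was present in 538 of 19093 windows of all genes tested (2.82%) and 1052 of 32851 windows of the whole table (3.20%). Windows of genes called lower at least 4-fold held it in 21 of 311 (6.75%), and windows of the microglia lists in 4 of 45 (8.89%). Windows of genes called higher at least 4-fold held it in 0 of 163. The SOX motif was searched as AACAATG and its reverse complement CATTGTT, and windows of genes higher at least 4-fold held it in 3 of 163 (1.84%), those lower at least 4-fold in 15 of 311 (4.82%) and those of all genes tested in 2.90%. Windows of a gene can overlap, and a match describes letters, with no test.

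The windows of Cd53 and Ctss, both among the 20 largest differences toward GFP-negative cells, held the PU.1 letters in reverse close to the start site. That of Bmpr1b, among the 20 largest in the other direction, held the SOX letters in reverse. The SOX letters were less frequent in windows of genes higher at least 4-fold (1.84%) than in those of all genes tested (2.90%). Capitals mark the match, and each window is printed 5′ to 3′ on the strand of its gene.
Cd53 (chr3:106790100-106790399, - strand): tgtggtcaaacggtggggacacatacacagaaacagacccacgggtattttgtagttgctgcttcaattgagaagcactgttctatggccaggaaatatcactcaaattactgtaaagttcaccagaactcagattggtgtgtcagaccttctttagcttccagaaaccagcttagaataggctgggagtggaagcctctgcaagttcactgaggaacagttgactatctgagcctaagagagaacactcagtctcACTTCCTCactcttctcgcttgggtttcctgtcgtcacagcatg
Ctss (chr3:95526536-95526835, + strand): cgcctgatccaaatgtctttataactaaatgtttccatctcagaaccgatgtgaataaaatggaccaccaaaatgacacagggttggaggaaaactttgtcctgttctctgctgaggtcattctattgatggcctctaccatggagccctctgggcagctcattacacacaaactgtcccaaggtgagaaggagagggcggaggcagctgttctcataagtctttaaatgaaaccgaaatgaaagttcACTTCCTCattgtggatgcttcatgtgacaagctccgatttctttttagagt
Bmpr1b (chr3:141982215-141982514, - strand): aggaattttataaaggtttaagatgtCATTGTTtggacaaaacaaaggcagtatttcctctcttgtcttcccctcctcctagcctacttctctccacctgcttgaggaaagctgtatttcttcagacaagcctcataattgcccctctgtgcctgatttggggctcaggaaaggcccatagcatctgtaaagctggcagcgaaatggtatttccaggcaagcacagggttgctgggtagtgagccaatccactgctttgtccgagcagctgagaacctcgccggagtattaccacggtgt

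In the window of Cd53 the match began 6 bases after the start site, and in that of Ctss 2 bases before it. In that of Bmpr1b it began at position -224 from the start. Cd53 had 4.69, 4.61 and 5.92 in the GFP-positive and 10.03, 9.78 and 9.75 in the GFP-negative samples. These genes came from sets limited to genes whose groups did not overlap.

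Of 3010 genes with several probe sets 684 were past the test, 603 of these with every probe set past it in the same direction, and 0 with a probe set past it in the other direction.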

How the data were processed

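RNA of sorted cells was amplified with a kit for fixed tissue and read on the Affymetrix GeneChip Mouse Gene 1.0 ST, per the labels' protocols. The deposited table holds log2 expression values, made by the authors with RMA (Robust Multichip Average), the probes regrouped by RefSeq transcripts of mm9, per the submitters' processing notes and the series description. RMA gives every array 1 common distribution of probe intensities, so that a difference in total RNA between the fractions does not show, and the sources used here do not give its version. Arrays have no read depth, so precision depends on how many there are.

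Of 31672 probe sets, 24590 matched 1 gene symbol through RefSeq accessions, 0 matched several and 7082 none, of which 6483 were predicted transcripts. The probe set with the highest mean over all 10 arrays stood for a gene, which gave 19965 genes. Group means of young GFP-positive, young GFP-negative and old GFP-positive samples were fitted with limma 3.58.1 in R 4.3.3 (lmFit, eBayes, 7 residual and 4.07 prior degrees of freedom), and p-values are two-sided with Benjamini-Hochberg adjustment over all genes. The fit was tested on simulated data. Significance Analysis of Microarrays, which the submitters used for old against young mice, was not run. No gene was filtered. Members and lists were chosen with earlier results of these data known.

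The genes named were the markers, the 20 largest differences in each direction, members of lists with the smallest p and members of counts of 5 or fewer. Some genes of these sets are not reported here. The microRNA loci, Malat1, Mrc1, Trem2 and the other genes outside these were chosen after their values were seen. Alternatives were other scalings, array weights, filters on dim genes, other summaries of probe sets, other variance models, age as a covariate, the young arrays alone, a replicate block and samples left out.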

Additional observations from a re-analysis of the deposited data

How the results depend on the processing

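Leaving out 1 young sample at a time gave 1037 to 1615 higher and 1356 to 1985 lower genes. Without both young replicate 1 samples 777 were higher and 1064 lower, with array weights 3035 were higher, and over all probe sets, which are more than the genes, 2417 were higher and 2825 lower. The other alternatives stayed within 1.5 times of the reported counts. With a replicate block 1247 genes were higher and 1577 lower. Deviations of samples with the same number correlated at 0.124, 0.021 and 0.191. In replicates 1 and 3, which have the same age in both fractions, each sample correlated best with its own number. In replicate 2, with different ages, neither sample did. The labels do not say which samples share a mouse or dissection. The main fit took the samples as independent, and p-values of a paired design can differ. Of 165 named genes past the test, 133 kept their call under each alternative that tested them and 32 lost it under at least 1, 16 under the replicate block (Mir100, Mir204, Ndnf, Neurod4, Neurod6, Rgs5, Shmt1, Slc17a7, Sox2, Sst, Stab1, Stmn3, Syn1, Tbr1, Vsnl1 and Vtn). Of 24 named genes not past the test, 13 passed under at least 1 alternative (Alas2, Ccna2, Dcn, Kif5a, Mcm3, Mki67, Mrc1, Nr4a1, Pcna, Plk1, Prox1, Rrm2 and Sox1). The direction turned only in named genes that had not passed. Clic6 (0.18) ranged from -0.92 to 1.37 with 1 young sample left out. Dcx (0.045) ranged from -0.78 to 0.50 with 1 young sample left out and was -0.036 with the mean of a gene's probe sets, -0.15 with array weights, -0.27 with age as a covariate and -0.45 without both 4-month-old samples. Neurod1 (0.92) ranged from -0.041 to 1.47 with 1 young sample left out and was -0.12 without both 4-month-old samples. Otx2 (0.31) ranged from -0.57 to 0.98 with 1 young sample left out. Ttr (0.11) ranged from -1.60 to 1.81 with 1 young sample left out. The causes were not tested. The table has no detection calls, so values at the low end of the arrays may not be above background.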
